A study of Arabidopsis thaliana with 2 samples.

Results

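The transcripts followed here are the core of jasmonate perception in Arabidopsis thaliana, 10 genes picked by gene identifier out of the 23147 genes listed in either of 2 libraries. They are 8 JAZ repressor genes (JAZ1, JAZ2, JAZ3, JAZ5, JAZ6, JAZ9, JAZ10 and JAZ12), the transcription factor MYC2 and the receptor COI1. Total RNA of rosettes was extracted for sequencing from 28-day-old untreated plants of the Col-0 ecotype, in 1 library of a transgenic line, called C3A below, and 1 library of the wild type, called WT. The C3A plants are a pbl19 null mutant that carries pPBL19-PBL19C3A-GFP-HA, a tagged PBL19 in which cysteine 3 is replaced by alanine and which its name places under the PBL19 promoter. PBL19 is a receptor-like cytoplasmic kinase of the immune system. The WT plants carry no transgene, and neither group was treated. How many plants were pooled, and whether the line is a single transformant, is not stated in the sources used here.

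Jasmonoyl-isoleucine, the active jasmonate, glues JAZ proteins to COI1, an F-box protein of an SCF ubiquitin ligase. The JAZ protein is then degraded, and MYC2 and its relatives, which JAZ proteins hold silent together with NINJA and TOPLESS, become active. JAZ genes are themselves targets of MYC2 in leaves, so that their transcripts serve as a readout of jasmonate signalling, and in Arabidopsis leaves this pathway and salicylic acid signalling restrain each other.

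Each library held about the same depth, 12001808 estimated counts in C3A and 11937705 in WT. Levels are given in FPKM, the count divided by gene length and by library size. PBL19, the targeted gene, was at 465.54 FPKM in C3A and 6.68 FPKM in WT, and reads of the transgene and of the native locus cannot be told apart. The genotypes had no replicates, so each difference below is one between these 2 libraries, without a test or a p-value. They differ in the null allele, the C3A exchange, the tags and the PBL19 level together, and a line with unchanged PBL19 was not analysed here. Rosette leaf markers were abundant in both libraries, with a summed level over 5 genes of 13686.59 FPKM in C3A and 24230.03 FPKM in WT, single genes lying between 737 and 8375 FPKM in C3A and between 1733 and 12729 FPKM in WT. All 5 root markers were present and lower in C3A, with a summed level of 19.84 FPKM in C3A and 66.05 FPKM in WT, and the range was 1.57 to 6.42 FPKM in C3A and 4.07 to 27.5 FPKM in WT. The 4 floral organ genes summed to 0.46 FPKM in C3A and 0.45 FPKM in WT, with AP3 unlisted in both. The part of leaf and root composition in the values below was not tested. In such bulk tissue fewer cells of a type and less RNA per cell cannot be told apart.

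What makes a JAZ protein a jasmonate co-receptor is written in its Jas motif, of which a run of 20 codons is shown as spliced coding sequence for the 8 JAZ genes, read from the RefSeq annotation of TAIR10.1. Capitals mark the 18 bases for the degron segment that contacts the hormone and COI1.
JAZ1: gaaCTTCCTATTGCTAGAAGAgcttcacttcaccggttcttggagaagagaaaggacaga
JAZ2: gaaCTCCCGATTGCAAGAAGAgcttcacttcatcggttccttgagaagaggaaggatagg
JAZ3: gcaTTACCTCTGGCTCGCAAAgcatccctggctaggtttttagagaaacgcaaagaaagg
JAZ5: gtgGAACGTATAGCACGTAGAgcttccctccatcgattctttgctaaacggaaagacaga
JAZ6: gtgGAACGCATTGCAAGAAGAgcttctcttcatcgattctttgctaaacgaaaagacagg
JAZ9: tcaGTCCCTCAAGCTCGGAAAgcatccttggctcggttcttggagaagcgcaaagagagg
JAZ10: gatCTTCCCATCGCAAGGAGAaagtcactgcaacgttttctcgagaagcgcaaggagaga
JAZ12: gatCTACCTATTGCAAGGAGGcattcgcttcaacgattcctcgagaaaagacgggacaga
The 60 bases were identical in all 8 genes at 20 positions. Among the 28 pairs the closest were JAZ5 and JAZ6 with 52 identical bases, JAZ1 and JAZ2 with 51, and JAZ3 and JAZ9 with 48, and the most distant were JAZ9 and JAZ12 with 28. The longest stretch shared by transcripts of any 2 of the 13 annotated JAZ genes was 25 bases, between JAZ3 and JAZ4, against reads of 150 bases. Estimated counts can be fractional where reads match more than 1 gene, and 19 of the 20 values of the 10 genes were whole (tolerance 1e-09). The exception was MYC2 in C3A, at 866.99. Over all listed genes, 88.9% of the counts in C3A and 89.1% of those in WT were whole.

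Most members lie on chromosome 1: JAZ1 (AT1G19180) at chr1:6621777-6623668 on the plus strand, JAZ2 (AT1G74950) at chr1:28148574-28150446 on the minus strand, JAZ5 (AT1G17380) at chr1:5955155-5957511 on the minus strand, JAZ6 (AT1G72450) at chr1:27273968-27276562 on the minus strand, JAZ9 (AT1G70700) at chr1:26654529-26657350 on the plus strand, and MYC2 (AT1G32640) at chr1:11798119-11801407 on the minus strand. Elsewhere lie COI1 (AT2G39940) at chr2:16672493-16675864 on the minus strand, JAZ3 (AT3G17860) at chr3:6119707-6123044 on the plus strand, JAZ10 (AT5G13220) at chr5:4218786-4221077 on the plus strand and JAZ12 (AT5G20900) at chr5:7090704-7092539 on the plus strand. Coordinates are those of TAIR10.1. The Jas blocks printed above lie, in the same order, at chr1:6623107-6623166, chr1:28149006-28149244, chr3:6122454-6122589, chr1:5955885-5956111, chr1:27274540-27275123, chr1:26656475-26656711, chr5:4219684-4220463 and chr5:7091755-7092105, each on its gene's strand, and all but that of JAZ1 span an intron. Of the 10 genes 4 overlap another annotated gene on the opposite strand. MYC2, a gene of 1 exon, shares 3241 of its 3289 bases with AT1G32630, which was at 17.47 FPKM in C3A and 18.09 FPKM in WT. Whether counting used strand is not stated in the sources used here, so reads of MYC2 and AT1G32630 cannot be told apart with certainty. The other overlaps are short, with 28 bases of JAZ12 shared with AT5G20910, 2 bases of COI1 shared with AT2G39930, and 21 bases of JAZ12 and 71 bases of JAZ10 shared with long non-coding RNA genes that neither library lists.

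None of the 10 genes was at least 2-fold higher or lower in C3A on the log2 scale of FPKM + 1. Over all 19527 genes that reached 1 FPKM in one library or both, 7.89% were at least 2-fold higher and 2.85% at least 2-fold lower. Higher genes were 73.5% of those past 2-fold as deposited, and 61.9% with the median gene set equal. The members' log2 ratios ran from -0.55 for JAZ3 to 0.69 for JAZ5, a span that holds 75.8% of all genes tested. Their median was 0.12, beside 0.14 for all genes tested. Ratios are to be read against that shift of the median gene towards C3A. All 10 genes passed the minimum of 1 FPKM, but JAZ5 and JAZ10 passed it through the C3A library alone.

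**Figure D1:**
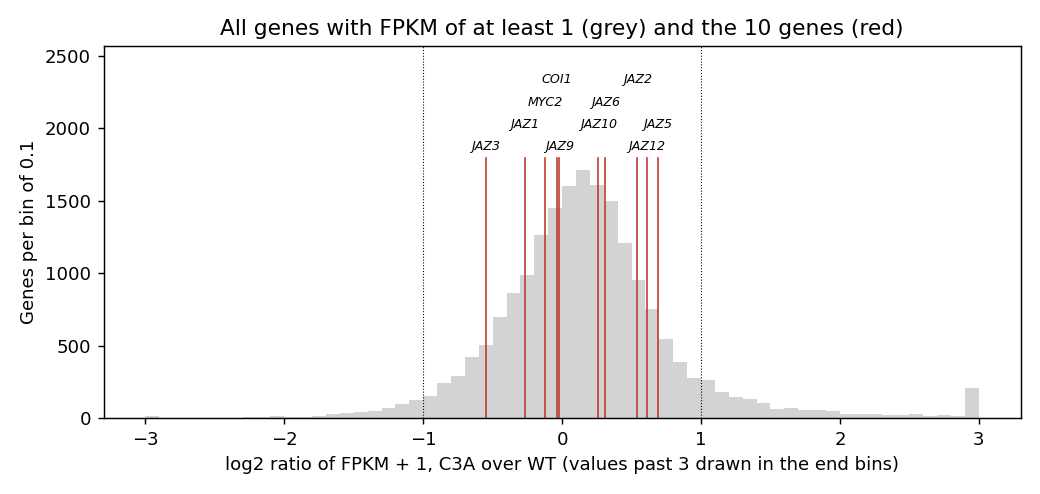
Distribution of the log2 ratio of FPKM + 1, C3A over WT, for all genes that reached 1 FPKM in one library or both (grey bars, genes per bin of 0.1), with each of the 10 genes as a red line and 2-fold as dotted lines. All 10 lines fall between -0.55 and 0.69, inside the 2-fold lines.

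Among the repressors, JAZ12 had the highest level in both libraries. It was at 83.25 FPKM from 1072 counts in C3A and at 54.12 FPKM from 693 counts in WT, 1.54-fold higher (95% counting interval 1.40 to 1.69). JAZ12 is one of the JAZ proteins whose turnover is also controlled by the ubiquitin ligase KEG. Its neighbour AT5G20910, with which it shares those 28 bases, was at 17.78 FPKM in C3A and 9.34 FPKM in WT. Intervals given with ratios are exact conditional (Clopper-Pearson) intervals of the rounded counts carried over to the FPKM ratio, and they cover counting error only, neither variation between plants nor duplicated reads.

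In the group of JAZ1, JAZ2, JAZ5 and JAZ6, close relatives differed in direction. JAZ2, which acts in guard cells during the response to the bacterial jasmonate mimic coronatine, was at 28.99 FPKM (447 counts) in C3A and 19.69 FPKM (302 counts) in WT. It was 1.47-fold higher (1.27 to 1.71). JAZ1, its nearest relative and the repressor in which hormone-dependent binding to COI1 was first studied, was lower, at 21.46 FPKM (365 counts) in C3A and 26.02 FPKM (442 counts) in WT. The ratio of JAZ1 was 0.825 (0.716 to 0.950), so that JAZ2 stood above JAZ1 in C3A and JAZ1 above JAZ2 in WT. JAZ6 was at 17.60 FPKM (342 counts) in C3A and 14.03 FPKM (273 counts) in WT, a ratio of 1.25 (1.07 to 1.48). JAZ5, its close paralogue, was low, at 1.11 FPKM from 19 counts in C3A and 0.31 FPKM from 6 counts in WT. The plain ratio of JAZ5 was 3.58, with a counting interval of 1.37 to 11.0. On the FPKM + 1 scale, which understates differences of low genes, its log2 ratio was the 0.69 given above, and with a pseudocount of 0.1 the log2 ratio was 1.56, past 2-fold.

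JAZ3 and JAZ9 form another pair of relatives and also differed from each other. JAZ3, the gene altered in the jasmonate-insensitive mutant jai3-1, was the member with the lowest ratio. It was at 11.05 FPKM (223 counts) in C3A and 16.61 FPKM (338 counts) in WT, a ratio of 0.665 (0.559 to 0.790). JAZ9, whose Jas motif is used in a fluorescent sensor of jasmonate, was at 14.13 FPKM (215 counts) in C3A and 14.35 FPKM (214 counts) in WT. Its ratio was 0.985, or -0.02 on the log2 scale (-0.30 to 0.26). JAZ10, a repressor that is strongly induced by wounding and limits the response through splice forms that escape degradation, was low in both libraries. It was at 1.18 FPKM from 20 counts in C3A and at 0.82 FPKM from 13 counts in WT, and its ratio of 1.44 has an interval of 0.681 to 3.15, which reaches from below 1 to past 2-fold.

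MYC2, the basic helix-loop-helix activator that the repressors bind, was at 21.62 FPKM (866.99 counts) in C3A and 23.60 FPKM (941 counts) in WT, a ratio of 0.916 (0.834 to 1.01). COI1, the F-box receptor, was at 14.12 FPKM (431 counts) in C3A and 14.53 FPKM (441 counts) in WT, a ratio of 0.972 (0.849 to 1.11). For COI1 the interval leaves out differences of 2-fold in either direction as far as counting error goes, and so does that of MYC2, with the overlap on the opposite strand named above.

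**Figure D2:**
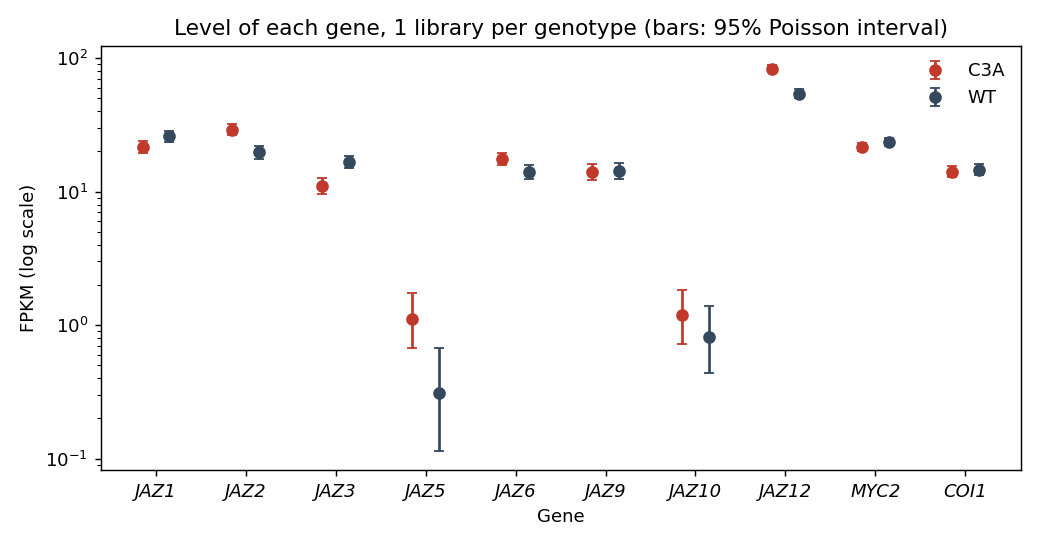
FPKM of each of the 10 genes on a log axis in the C3A (red) and WT (dark blue) libraries, with bars for the 95% Poisson interval of the count. JAZ12 lies highest in both libraries, and JAZ5 and JAZ10 lie lowest, at 0.31 to 1.18 FPKM.

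The counting interval of the ratio lay wholly above 1 for 4 of the 10 genes, JAZ2, JAZ5, JAZ6 and JAZ12. That was the case for 38.5% of the 19406 genes tested that were counted in both libraries. It lay wholly below 1 for JAZ1 and JAZ3, as for 20.1% of those genes. When C3A values were divided by 1.11, so that the median gene was equal in both libraries, the intervals of JAZ2, JAZ5 and JAZ12 lay above 1, and those of JAZ1, JAZ3 and MYC2 below 1. The shares over all genes were then 28.6% above and 28.1% below. JAZ6 then spanned 1 (1.13, 0.962 to 1.33), and MYC2 had a ratio of 0.826 (0.752 to 0.907). The members' shares on either side of 1 were thus close to those of all genes. JAZ5 passed the minimum of 1 FPKM through C3A alone, where it is higher, so its place above 1 is partly set by that minimum. The other genes above 1 were JAZ2, JAZ6 and JAZ12 as deposited, and JAZ2 and JAZ12 with the median gene set equal.

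**Figure D3:**
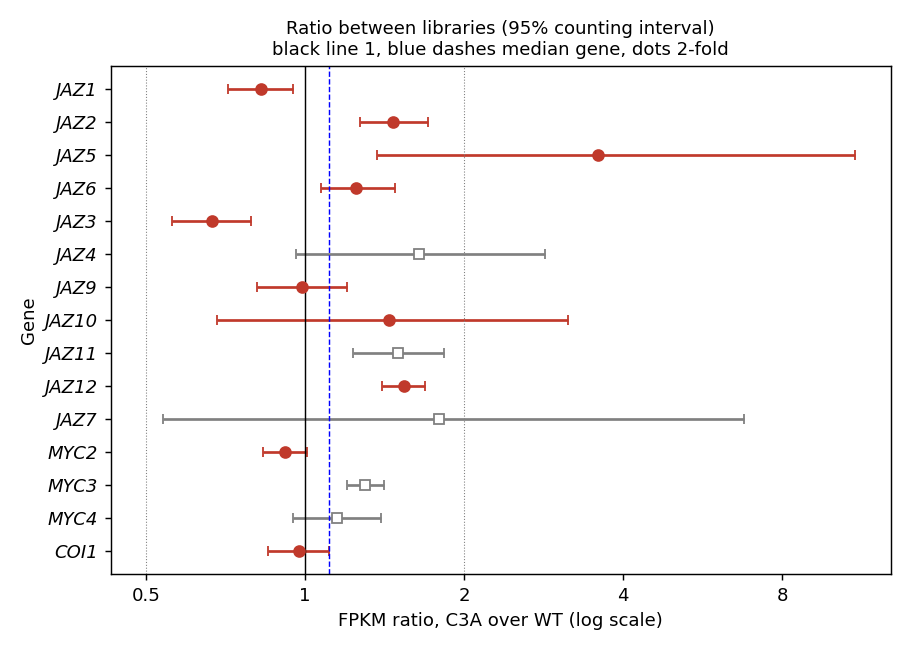
FPKM ratio of C3A over WT on a log axis for the JAZ genes counted in both libraries, MYC2, MYC3, MYC4 and COI1, with 95% counting intervals; filled red circles are the 10 genes and open grey squares are relatives outside them. The intervals of JAZ2, JAZ5, JAZ11, JAZ12 and MYC3 lie above the dashed line of the median gene at 1.11. Those of JAZ1, JAZ3 and MYC2 lie below that line, and those of JAZ1 and JAZ3 also lie below 1.

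In the order of levels JAZ12 came first in both libraries, and its Poisson interval did not overlap that of the next gene. Below it in C3A came JAZ2, MYC2, JAZ1, JAZ6, JAZ9, COI1 and JAZ3 in that order, from 28.99 to 11.05 FPKM. Below it in WT came JAZ1, MYC2, JAZ2, JAZ3, COI1, JAZ9 and JAZ6, from 26.02 to 14.03 FPKM. In C3A JAZ2 lay above MYC2 without overlap, the neighbours from MYC2 down to COI1 had overlapping intervals, and JAZ3 lay below COI1 without overlap. In WT JAZ1 and MYC2 overlapped and lay above JAZ2 without overlap, while the intervals overlapped between all neighbours from JAZ2 down to JAZ6. JAZ10 and JAZ5 came last in both libraries, without overlap with the gene above them and with overlap between each other.

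Summed over the 8 repressor genes, JAZ transcripts came to 178.77 FPKM in C3A and 145.95 FPKM in WT, a ratio of 1.22, or 1.10 with the median gene set equal. Most of the difference in that sum between the libraries lay with JAZ12, at 83.25 FPKM in C3A and 54.12 FPKM in WT. JAZ1, JAZ3 and JAZ9 had ratios below 1, so the ratio of the sum does not hold for each repressor. JAZ12 made up 46.6% of the sum in C3A and 37.1% in WT. JAZ2 made up 16.2% in C3A and 13.5% in WT, while JAZ1 was lower in share as in level. JAZ3 held 6.18% in C3A and 11.4% in WT. The repressor sum was 8.27 times the MYC2 level in C3A and 6.18 times in WT. MYC2 has the overlap on the opposite strand named above, and it is not the only MYC gene. With its relatives MYC3 and MYC4 it came to 74.58 FPKM in C3A and 65.17 FPKM in WT. That is a ratio of 1.14, beside the 1.22 of the repressor sum, whose difference lay mostly with JAZ12. JAZ9 held 7.90% in C3A and 9.83% in WT, and JAZ6 held 9.85% in C3A and 9.61% in WT. The shares of JAZ12 and JAZ2 were thus higher in C3A and those of JAZ1, JAZ3 and JAZ9 lower, while JAZ5 and JAZ10 each stayed under 1% of the sum. A share also depends on the other genes of the sum, and in level JAZ9 had a ratio of 0.985.

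The other 5 annotated JAZ genes added little apart from JAZ11. JAZ11, the paralogue of JAZ12, was at 18.58 FPKM (257 counts) in C3A and 12.42 FPKM (171 counts) in WT, with a counting interval of the ratio from 1.23 to 1.83, which overlaps that of JAZ12. Together the JAZ11 and JAZ12 pair came to 101.83 FPKM in C3A and 66.54 FPKM in WT. JAZ4, the relative of JAZ3 and JAZ9, was at 2.21 FPKM (39 counts) in C3A and 1.35 FPKM (24 counts) in WT. With it, the group of JAZ3, JAZ4 and JAZ9 came to 27.39 FPKM in C3A and 32.31 FPKM in WT. JAZ7 was at 0.93 FPKM from 9 counts in C3A and 0.52 FPKM from 5 counts in WT. JAZ8, a repressor whose divergent Jas motif lacks the usual degron, was unlisted in C3A and had 1 count in WT. AT3G22275, annotated only as a jasmonate ZIM-domain protein, was unlisted in both. For an unlisted gene a count of 0 allows up to 3 counts in a library of this depth. JAZ7, JAZ8 and JAZ10 are known as genes that wounding and jasmonate treatment raise steeply, and each had 20 counts or fewer in both libraries.

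**Figure D4:**
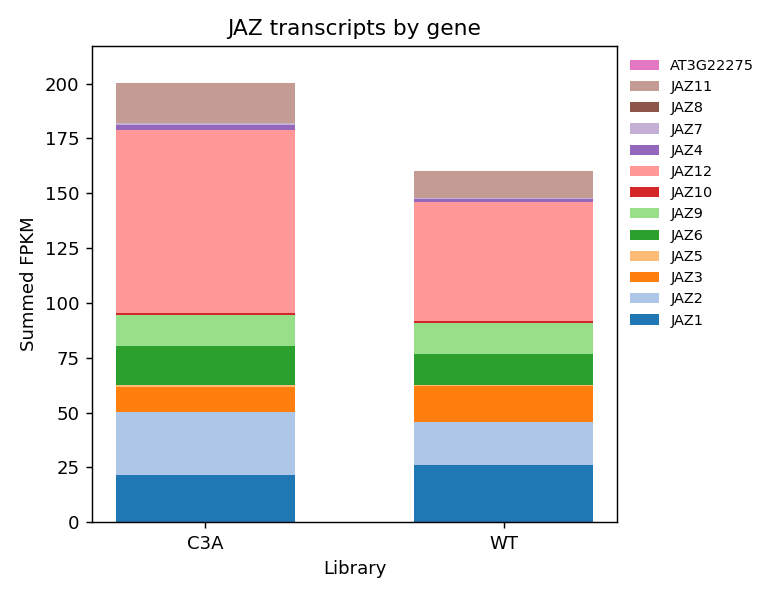
Summed FPKM of the 13 annotated JAZ genes in the C3A and WT libraries, each colour a gene. The sum is 200.49 FPKM in C3A and 160.35 FPKM in WT, and the JAZ12 segment is 83.25 FPKM in C3A and 54.12 FPKM in WT.

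Several JAZ genes encode truncated repressors through retention of an intron inside the Jas motif, a form known to resist degradation. Of the 7 annotated transcripts of JAZ10, 4 encode the Jas block, 1 continues into the rest of the motif and 3 stop directly after the block. JAZ2 and JAZ6 each have 2 annotated transcripts, of which 1 stops directly after the block. The deposited tables give no level per transcript, but they give a length per gene and library, which for genes with several transcripts often lies between the annotated transcript lengths. For JAZ3 it was 1673 bases in C3A, the length of a single annotated transcript, and 1696 bases in WT. For JAZ1 it was 1416 bases in C3A, again that of a single transcript, and 1421.91 bases in WT. For JAZ2 it was 1287.08 bases in C3A and 1287.58 bases in WT, and for JAZ6 1612.44 bases in C3A and 1623.37 bases in WT. The larger differences belong to the low genes, with JAZ10 at 1407.68 bases in C3A and 1334.45 bases in WT and JAZ5 at 1420.86 bases in C3A and 1610.3 bases in WT. With 1 common length per gene the log2 ratio on the FPKM + 1 scale was 0.62 for JAZ5 and 0.30 for JAZ10. As deposited it was 0.69 for JAZ5 and 0.26 for JAZ10.

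MYC2 binds the G-box, whose letters are CACGTG on both strands. The 250 bases before the annotated gene start are shown for JAZ2, JAZ12 and JAZ3, the well-counted members with the largest ratios in either direction, with each G-box in capitals.
JAZ2: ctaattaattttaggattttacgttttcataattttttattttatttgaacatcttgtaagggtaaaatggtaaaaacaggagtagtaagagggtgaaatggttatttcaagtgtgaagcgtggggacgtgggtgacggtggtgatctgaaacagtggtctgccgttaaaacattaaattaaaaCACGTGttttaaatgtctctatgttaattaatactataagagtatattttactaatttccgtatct
JAZ12: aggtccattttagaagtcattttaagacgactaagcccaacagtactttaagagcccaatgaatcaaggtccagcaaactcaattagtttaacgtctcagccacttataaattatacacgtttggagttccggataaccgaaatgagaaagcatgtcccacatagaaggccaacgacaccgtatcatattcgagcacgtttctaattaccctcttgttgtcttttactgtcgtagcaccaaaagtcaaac
JAZ3: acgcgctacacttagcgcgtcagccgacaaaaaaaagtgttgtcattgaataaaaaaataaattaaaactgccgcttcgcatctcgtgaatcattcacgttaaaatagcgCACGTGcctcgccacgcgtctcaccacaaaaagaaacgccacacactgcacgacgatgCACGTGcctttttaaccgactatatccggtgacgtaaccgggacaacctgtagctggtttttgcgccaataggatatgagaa
These stretches are TAIR10.1 chr1:28150447-28150696 on the minus strand for JAZ2, chr5:7090454-7090703 on the plus strand for JAZ12 and chr3:6119457-6119706 on the plus strand for JAZ3. The G-box of JAZ2 starts 66 bases before the gene start and the pair in JAZ3 starts 140 and 82 bases before it. JAZ2, higher in C3A, and JAZ3, lower in C3A, both hold the motif, and JAZ12 does not hold these letters in this window. Of the 10 genes 2 hold a G-box there, and of the 13 JAZ genes 5 do, the others being JAZ7 at 34 bases, JAZ8 at 10 bases and AT3G22275 at 95 bases before the start. Among the windows of all 27443 protein-coding genes, 6.49% hold one. No other motif was searched.

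The genes of the proteins that work with the members were also measured. Over all genes 7.89% were at least 2-fold higher and 2.85% at least 2-fold lower, and in lists of this size a count of 0 lies near those shares. None of the 8 co-repressor genes (NINJA, TOPLESS and its relatives, and 2 histone deacetylases) was at least 2-fold higher or lower, with log2 ratios from -0.06 to 0.58 and a median of 0.18 beside 0.14 for all genes. The corepressor TPL was at 33.81 FPKM in C3A and 22.68 FPKM in WT, with fractional counts and an overlap on the opposite strand, TPR3 at 9.61 FPKM in C3A and 6.08 FPKM in WT, and TPR2 at 19.77 FPKM in C3A and 16.26 FPKM in WT. TPR3, too, overlaps genes on the opposite strand.

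Of the 7 MYC relatives, repressing JAM factors and the Mediator subunit MED25, 6 reached 1 FPKM. None of them was past 2-fold, beside 7.89% higher and 2.85% lower over all genes, with log2 ratios from 0.14 to 0.74. MYC3, which shares the JAZ-binding domain and part of the work of MYC2, was at 44.58 FPKM (1392 counts) in C3A and 34.27 FPKM (1064 counts) in WT, 1.30-fold higher. MYC4, named after its value was seen, was at 8.38 FPKM in C3A and 7.30 FPKM in WT. MYC3 was thus the most abundant of the 3 genes in both libraries, and with MYC2 and MYC4 it summed to 74.58 FPKM in C3A and 65.17 FPKM in WT. JAM3, a factor that competes with MYC2 for its target sites, was at 29.15 FPKM in C3A and 17.00 FPKM in WT, and JAM1 at 8.30 FPKM in C3A and 6.98 FPKM in WT. JAM3 overlaps AT4G16440 on the opposite strand.

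Among the SCF subunits and the auxin receptors related to COI1, none of 8 was past 2-fold, beside 7.89% higher and 2.85% lower over all genes. The median log2 ratio of the 8 was 0.15. ASK1, the SKP1 adaptor that joins COI1 to the cullin, was at 163.64 FPKM in C3A and 107.03 FPKM in WT. RBX1, the RING subunit, was at 69.05 FPKM in C3A and 44.31 FPKM in WT. The auxin receptor AFB1 was lower, at 9.96 FPKM in C3A and 14.58 FPKM in WT, and it overlaps genes on the opposite strand.

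Beside the receptor complex stand the genes that make and break down jasmonate. Of 11 jasmonate synthesis genes, 1 was at least 2-fold higher and 1 at least 2-fold lower, beside 7.89% higher and 2.85% lower over all genes, with a range of log2 ratios from -1.72 to 1.32 and a median of 0.12. AOS, which commits the precursor to jasmonate, was at 29.63 FPKM in C3A and 99.57 FPKM in WT. AOC1, which like AOC2, AOC3 and AOC4 stands for the next enzyme, was at 9.32 FPKM in C3A and 16.41 FPKM in WT. The other AOC genes were named after their values were seen. AOC2 was at 116.65 FPKM in C3A and 133.70 FPKM in WT. AOC3 (8.16 FPKM in C3A, 6.87 FPKM in WT) and AOC4 (42.15 FPKM in C3A, 38.58 FPKM in WT) went the other way. AOC1, AOC2 and AOC3 have fractional counts. The lipoxygenase LOX4 was at 3.18 FPKM (118 counts) in C3A and 0.68 FPKM (25 counts) in WT. LOX4 is the higher gene of that count, it passed the minimum of 1 FPKM through C3A alone, and the count was 0 with a minimum or a pseudocount of 5 FPKM. The lipoxygenase genes LOX2 and LOX3 were named after their values were seen. LOX3 was also higher in C3A, at 5.69 FPKM in C3A and 4.23 FPKM in WT. LOX2, by far the most abundant of these lipoxygenase genes, went the other way, at 139.19 FPKM in C3A and 180.22 FPKM in WT. Of 9 catabolism genes 5 reached 1 FPKM and none was past 2-fold, with a log2 range from -0.36 to 0.85 and a median of 0.31. With a pseudocount of 0.1, 1 of them was at least 2-fold higher. IAR3, an amidohydrolase that splits jasmonoyl-isoleucine, was at 26.29 FPKM in C3A and 14.11 FPKM in WT, CYP94C1 at 2.93 FPKM in C3A and 1.24 FPKM in WT, and CYP94B1 at 2.70 FPKM in C3A and 3.76 FPKM in WT.

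Outputs of the MYC2 branch differed in both directions. Of 6 such genes, 2 were at least 2-fold higher and 1 at least 2-fold lower, beside 7.89% higher and 2.85% lower over all genes, with a median log2 ratio of 0.07 and a range from -3.17 to 2.59. ANAC019, a NAC factor that MYC2 activates, was at 16.90 FPKM (276 counts) in C3A and 1.97 FPKM (32 counts) in WT, 8.58-fold higher (5.94 to 12.8). Its close relative ANAC055 was at 4.85 FPKM (90 counts) in C3A and 0.60 FPKM (11 counts) in WT. ANAC072, the other NAC gene of the list, named after its value was seen, went the other way. It was at 12.47 FPKM (195 counts) in C3A and 16.13 FPKM (232 counts) in WT, a ratio of 0.773 (0.636 to 0.939). ANAC055 passed the minimum of 1 FPKM through C3A alone, and the count of higher genes was 1 with a minimum or a pseudocount of 5 FPKM. CORI3, induced by coronatine, was at 6.69 FPKM (140 counts) in C3A and 68.07 FPKM (1410 counts) in WT, 10.2-fold lower (8.55 to 12.2). VSP1, a vegetative storage protein with fractional counts, named after its value was seen, was at 20.16 FPKM in C3A and 38.88 FPKM in WT. On the log2 scale its ratio was -0.91, and -1.06, past 2-fold, once the median gene was set equal. VSP2, its sister gene, also with fractional counts and named after its value was seen, was at 94.37 FPKM in C3A and 67.47 FPKM in WT, 1.40-fold higher (1.30 to 1.51). In the ethylene-dependent ERF branch 1 of 3 genes was past 2-fold, ERF1, at 2.64 FPKM from 31 counts in C3A and 0.09 FPKM from 1 count in WT, beside 7.89% higher over all genes. ERF1 passed the minimum of 1 FPKM through C3A alone, and the count was 0 with a minimum or a pseudocount of 5 FPKM and 2 with a pseudocount of 0.1. ORA59 was at 4.71 FPKM in C3A and 1.94 FPKM in WT. The defensin gene PDF1.2A had 21 counts in C3A and 20 counts in WT.

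**Figure D5:**
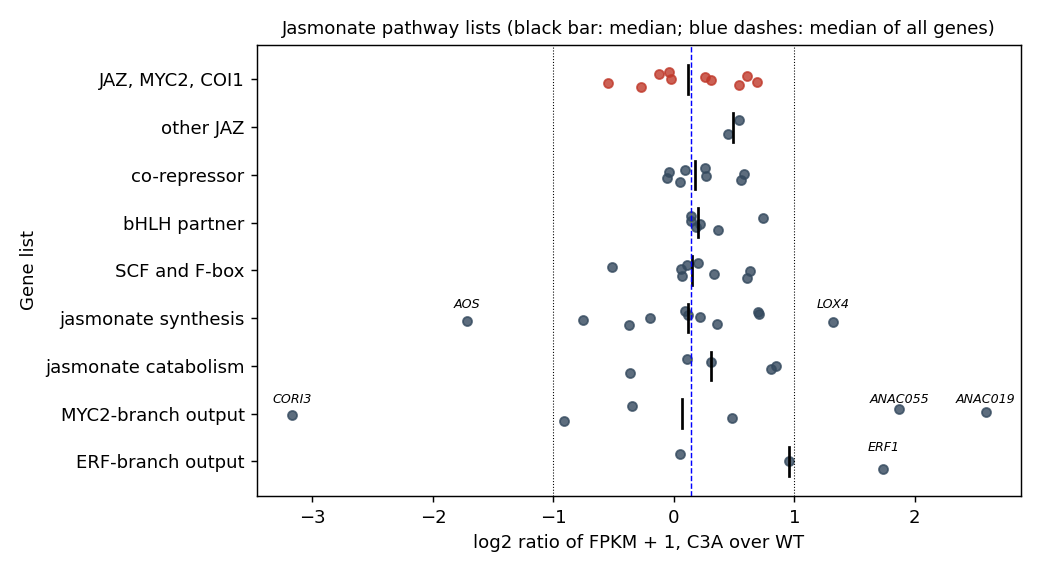
log2 ratio of FPKM + 1, C3A over WT, for each gene that reached 1 FPKM in the jasmonate pathway lists, with the list median as a black bar, the median of all genes as a blue dashed line and 2-fold as dotted lines. The 10 genes (red) and the lists of their partner proteins lie inside the 2-fold lines, and the synthesis and output genes reach from -3.17 to 2.59. Over all genes 7.89% were at least 2-fold higher and 2.85% at least 2-fold lower.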

How the data were processed

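RNA was measured in 2 rosette libraries, sequenced as 150 bp paired-end reads per the labels' protocols. Per the submitters' processing notes, Trimmomatic 0.36, HISAT and TAIR10 were used. Which tool quantified the genes, which HISAT version ran and whether strand was used is not given in the sources used here. Per the file headers, each deposited table gives an expected count (estimated count), a gene length in bases and an FPKM per gene; genes at 0 are not listed and were set to 0. The FPKM values were used as the authors deposited them, without further scaling. All 12079 genes with 1 transcript had the RefSeq TAIR10.1 transcript length (tolerance 0.01), and 22970 of 23147 identifiers were found in that annotation.

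Samples were grouped by genotype label and title. The log2 ratio of FPKM + 1, C3A over WT, was taken for genes that reached 1 FPKM in one library or both, and 2-fold was the threshold. Expected counts were rounded for intervals. With 1 library per genotype no test was run. Gene positions and DNA were read from TAIR10.1. Named were all members, the other JAZ genes and, of each other list, up to 3 genes with the largest absolute ratio. MYC4, VSP1, VSP2, ANAC072, AOC2, AOC3, AOC4, LOX2 and LOX3 were added after their values were seen. The members and lists were chosen with earlier results of these data known. Alternatives changed the pseudocount, the filter, the scaling and the gene length. The steps were tested on simulated data. Software was scipy 1.17.1, numpy 2.4.6, pandas 2.3.3, biopython 1.88 and matplotlib 3.10.9 under Python 3.11.15, and R 4.3.3 with edgeR 4.0.16 for TMM factors.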

Additional observations from a re-analysis of the deposited data

How the results depend on the processing

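None of the 10 genes was at least 2-fold lower under any of the 7 alternatives, and none was at least 2-fold higher under 6 of them; with a pseudocount of 0.1, 1 was at least 2-fold higher, JAZ5, whose values rest on 19 counts in C3A and 6 in WT. The median log2 ratio of the 10 genes ranged from -0.03, over those with at least 5 FPKM, to 0.15. No member's log2 ratio changed sign under the alternatives, but a changed pseudocount or filter cannot change a sign. Of 68 alternative values 63 lay within the member's counting interval, which is that of the plain ratio. These include the 10 values without a filter and the 8 at a minimum of 5 FPKM, which a filter leaves as they were. Setting the median gene equal took the JAZ12 ratio to 0.46 and the MYC2 ratio to -0.26, and TMM scaling to 0.46 and -0.28. A pseudocount of 5 took JAZ5 to 0.20.

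Over all genes, 1541 were at least 2-fold higher and 557 at least 2-fold lower as deposited. With a pseudocount of 5 the counts were 735 higher and 243 lower, with a pseudocount of 0.1 2067 higher and 911 lower, and with TMM-scaled counts 1274 higher and 856 lower. Higher genes made up 73.5% of these as deposited, 61.9% with the median gene set equal and 59.8% under TMM. Most list counts past 2-fold were 0 as deposited. The counts of higher synthesis, MYC2-branch and ERF-branch genes were smaller with a minimum or a pseudocount of 5 FPKM, as given beside them, and 2 MYC2-branch genes were lower with the median gene set equal and under TMM, against 1 as deposited. No paired analysis was possible because each genotype has 1 library, and no replicate could be left out for the same reason. Depth limits JAZ5, JAZ10, JAZ7 and JAZ8, each at 20 counts or fewer in both libraries.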
